A study of Mus musculus with 30 samples.

Results

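The myocyte enhancer factor 2 (MEF2) genes Mef2a, Mef2c and Mef2d were followed through a 48 h time course of cultured mouse leg muscle. Members were all probe sets, the groups of array probes that together measure a transcript, that the platform annotation assigns to 1 of these 3 genes and to no other. These are 3 of the 18194 genes that the annotation names in this way, and they were represented by 14 of the 45265 probe sets of a pair of Affymetrix chips called A and B. Mef2a had 5 on A and 1 on B, Mef2c had 5 on A and 0 on B, and Mef2d had 2 on A and 1 on B. All 14 were bright enough to be tested. Total RNA of cell cultures labelled as leg muscle was hybridised after 0, 4, 12, 24 and 48 h. With 3 replicates at each hour, hybridised to both chips, the study held 30 arrays. The labels give no strain, genotype, age, medium or agent for any hour, nor the event from which the hours are counted. They also do not say whether replicates were separate cultures, so the p-values below rest on a spread among arrays that may be technical only.

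MEF2 proteins are transcription factors of the MADS-box family that bind an A/T-rich DNA element as dimers. In skeletal muscle they act with the myogenic factors of the MyoD family to switch on genes of contraction and energy supply. Class II histone deacetylases hold MEF2 proteins in a repressed state, and p38 and calcium-dependent kinases relieve that state.

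The values are linear intensities, deposited after scaling to 1 trimmed mean, which was 500.1 to 500.2 on every array. The labelled cell type was checked against its markers. All 7 skeletal muscle markers were bright, with Myog, a differentiation factor, between 6429 and 12720 on every A array and Acta1, the skeletal muscle actin, between 8197 and 17000. Replicate 3 formed a group of its own at all hours: compared with the other replicates, 17.5% of the probe sets tested on A were lower and 16.4% higher in it, and on B 7.37% were lower and 7.44% higher. Results are therefore given over all arrays, after adding a batch term for replicate 3 (called the batch fit), and with replicate 3 left out. Differences are log2 differences of intensity after addition of a small constant (29 on A, 54 on B), tested in limma across all tested probe sets of a chip. A probe set was called at a Benjamini-Hochberg adjusted p under 0.05. The 0 h arrays enter every comparison with 0 h, so these comparisons share their deviations. RNA was measured in bulk, so a larger share of expressing cells and more RNA per cell cannot be told apart.

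The sequences shown here carry the DNA element that MEF2 proteins bind, at the start of 1 MEF2 gene and of 3 known MEF2 target genes whose levels are given below. Windows of 300 bases around the transcription starts (RefSeq, GRCm38.p6) were searched on both strands for the MEF2 consensus element, which is 10 bases long. The element is in capitals, and each sequence reads in the direction of its gene:

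Mef2a: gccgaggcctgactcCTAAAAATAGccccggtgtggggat

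Pgam2: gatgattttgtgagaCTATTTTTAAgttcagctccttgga

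Srpk3: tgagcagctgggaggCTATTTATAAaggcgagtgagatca

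Jun: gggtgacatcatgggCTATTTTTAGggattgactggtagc

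The Mef2a stretch lies at chr7:67372836-67372875 on the minus strand, and its element begins 2 bases before the annotated start of the gene. The Pgam2 stretch lies at chr11:5803852-5803891 on the minus strand, with the element 80 bases before the start. For Srpk3 it lies at chrX:73774323-73774362 on the plus strand, with the element 67 bases before the start. For Jun it lies at chr4:95052231-95052270 on the minus strand, with the element 33 bases before the start. A window of this length held the element in 1047 of 32851 cases (3.19%). The 3 windows of Mef2c and the 1 window of Mef2d held no match, which says only that these letters are not in these windows. Among 21 known MEF2 targets, 16 had windows in the table, and 4 of their 19 windows (21.1%) held a match. The E-box CANNTG, the element of the MyoD family (both strands searched), was in 72.3% of all windows, in 2 of the 3 Mef2c windows, and in none for Mef2a or Mef2d. These matches are descriptions of sequence, not measured binding.

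Mef2c, the MEF2 gene tied most closely to muscle and heart development, rose late. On its brightest probe set, 1421027_a_at, the intensities at 0 h were 965.7, 811.0 and 1667.7 in replicates 1, 2 and 3. At 4 h they were 1412.2, 1042.0 and 1574.7, and at 12 h 2188.1, 2176.6 and 2125.4. At 24 h they reached 4668.6, 5170.0 and 2998.9, and at 48 h 5520.5, 5978.3 and 2924.6. Every array at 12, 24 and 48 h lay above every array at 0 and 4 h, and within the last hours replicate 3 was the lowest. The mean went from 1148 ± 456.6 (SD, n = 3) at 0 h to 4279 ± 1137 at 24 h and 4808 ± 1647 at 48 h. The log2 difference from 0 h was 1.90 at 24 h (SE 0.30, adjusted p = 0.00541) and 2.04 at 48 h (SE 0.30, adjusted p = 0.00310).

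The other 4 Mef2c probe sets rose as well at both hours. Over the 5 sets the log2 difference from 0 h was 1.88 to 2.26 at 24 h and 1.95 to 2.32 at 48 h, and the ratio of mean intensities was 3.73 to 5.37 at 24 h and 4.19 to 5.50 at 48 h. On 1451507_at, the dimmest, the 0 h arrays read 186.8, 157.0 and 252.7 and the 48 h arrays 931.7, 1759.3 and 590.9. The 0 h and 48 h arrays did not overlap there or on the other 4. Of the 5 sets, 1424852_at, 1451506_at and 1451507_at derive from the same transcript record, and the suffix _a_at on the remaining pair marks probes that match several transcripts of the gene, so the 5 are not independent measures. For the background, 1.61% of all tested probe sets on A and 0.592% on B rose at 24 h, and 1.42% and 0.666% at 48 h. The F test over all hours called all 5 Mef2c sets (adjusted p = 0.00292 to 0.00689) and none of the other 9 members, where it called 1.97% of A and 0.896% of B probe sets.

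**Figure D1:**
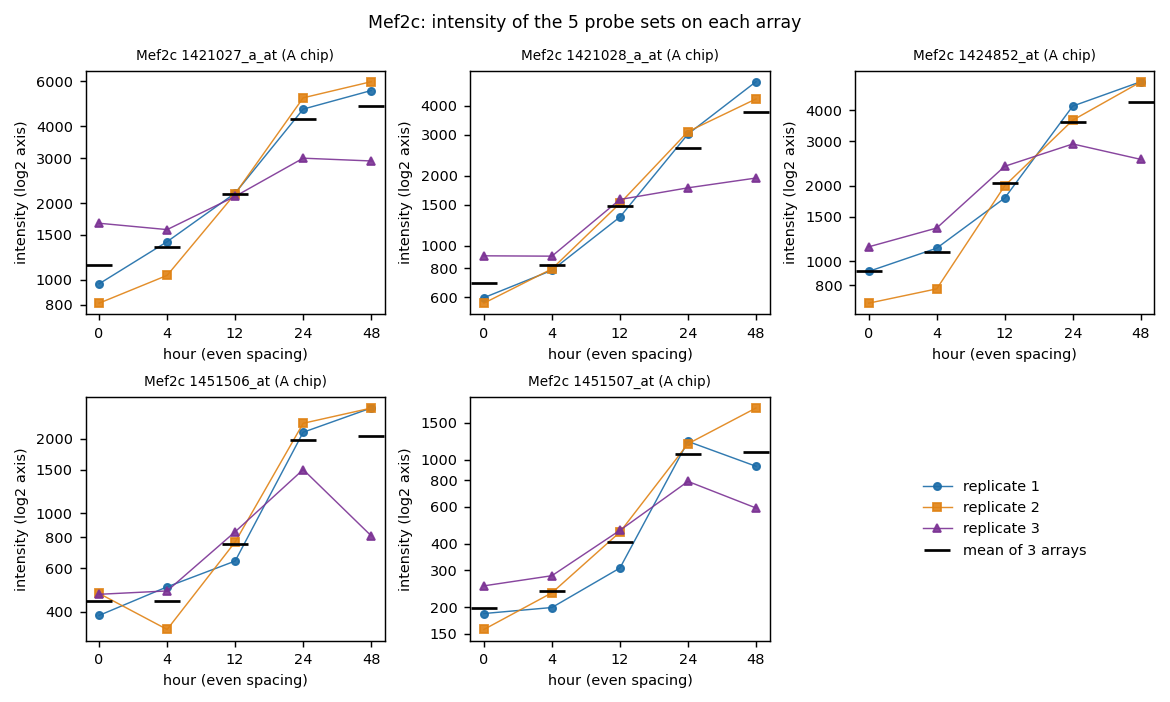
Intensity (log2 axis) of the 5 Mef2c probe sets on each A array against hour, evenly spaced, with symbols and lines for replicates 1 to 3 and a bar for the mean of 3 arrays. All 5 means are highest at 48 h, and replicate 3 (triangles) is below replicates 1 and 2 at 24 and 48 h in each panel.

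The time at which Mef2c began to rise was placed less firmly. At 4 h the log2 differences were -0.02 to 0.28. At 12 h they were 0.72 to 1.17, and none was called over all arrays, where 0% of tested A probe sets were (main set 0.96, 95% interval 0.33 to 1.60, adjusted p = 0.509). The batch fit called 1 of the 5 at 12 h, 1424852_at (1.17, adjusted p = 0.0428), where 0.545% of A probe sets rose. In replicates 1 and 2 alone 4 of the 5 were called at 12 h, the exception being 1451506_at, where 1.86% rose. The step from 12 to 24 h was 0.78 to 1.35 with no call over all arrays. In replicates 1 and 2 alone that step was 1.03 to 1.62 and was called for all 5 sets, against 1.44% of A probe sets. Between 24 and 48 h the difference was -0.11 to 0.45 with no call over all arrays. In replicates 1 and 2 alone, 1421028_a_at rose further (0.60, adjusted p = 0.0234). The batch fit and replicates 1 and 2 alone called all 5 sets at 24 h and at 48 h. These fits called 6% and 6.52% of A probe sets higher at 24 h, and 5.1% and 5.95% at 48 h. The calls of 1451506_at depended on single arrays: at 24 h it had 2.01 (adjusted p = 0.0510) and 1.95 (0.0502) without the 24 h array of replicate 1 or 2, against 2.07 over all arrays. At 48 h, against 1.95, it had 1.86 (0.0609) and 2.00 (0.0680) without the 0 h array of replicate 1 or 2, and 1.67 (0.0684) and 1.67 (0.0711) without the 48 h array of these. The 48 h call was also lost when the 0 and 48 h arrays were fitted alone (1.95, adjusted p = 0.0912). The other 4 sets stayed called at both hours without any 1 array.

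The size of the Mef2c rise differed between replicates. On 1421027_a_at the log2 change from 0 to 48 h was 2.48 in replicate 1, 2.84 in replicate 2 and 0.80 in replicate 3. On 1421028_a_at it was 3.03, 2.86 and 1.09 in the same order. Replicate 3 thus had the smallest change on both. It also had the highest 0 h array on both, so its smaller change reflects a higher start as well as lower late arrays. These 0 h arrays read 1667.7 against 965.7 and 811.0, and 904.2 against 597.3 and 565.7. In a fit with an interaction of hour and replicate 3, the change was smaller in replicate 3 by 1.60 on 1421027_a_at (adjusted p = 0.0185) and by 1.39 on 1421028_a_at (adjusted p = 0.0177) at 24 h. At 48 h it was smaller for 4 of the 5 sets, with interactions from -1.86 to -1.54, and the remaining one, 1451507_at, had -1.57 (adjusted p = 0.125). Interactions in this direction were called for 0.258% of A probe sets at 24 h and 0.884% at 48 h. Replicate 3 has 1 array per hour, and the spread in this test comes from replicates 1 and 2. Averaged over hours, replicate 3 differed from the others by -0.33 to -0.01 on the 5 sets, and no set was called.

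Mef2d, a MEF2 gene expressed in many tissues, peaked at 24 h on its brightest A probe set, 1434487_at. The 0 h arrays read 997.3, 943.3 and 940.5, and the 4 h arrays 1413.5, 1304.5 and 1052.3. At 12 h the intensities were 1601.4, 1480.4 and 1160.2, at 24 h 2131.9, 2208.1 and 1375.3, and at 48 h 1122.4, 1328.6 and 1064.1. All 12 later arrays were above the 0 h arrays, and in each replicate the 24 h array was the highest. The log2 difference from 0 h was 0.94 at 24 h (SE 0.19, adjusted p = 0.0167), a ratio of means of 1.98. The batch fit gave the same difference with adjusted p = 0.000277, and replicates 1 and 2 alone gave 1.14 (adjusted p = 9.87e-05). They also called 12 h (0.65, adjusted p = 0.0155), which the batch fit did not (0.53, adjusted p = 0.0545). At 48 h the difference over all arrays was 0.27 (adjusted p = 0.548).

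The return of Mef2d after 24 h depended on how replicate 3 was treated. From 24 to 48 h the log2 difference was -0.66 (95% interval -1.06 to -0.26, adjusted p = 0.390) over all arrays. It was called lower in the batch fit (adjusted p = 0.0133, against 1.2% of A probe sets) and in replicates 1 and 2 alone (-0.81, adjusted p = 0.00563). The F test over all hours gave adjusted p = 0.0907 over all arrays and 0.00130 in the batch fit. Over all arrays the 24 h call rested on few of them. It was lost without the 0 h array of replicate 1 (adjusted p = 0.0533) or 2 (0.0849) and without the 24 h array of replicate 1 (0.104) or 2 (0.107). Fitting the 0 and 24 h arrays alone gave adjusted p = 0.0700.

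The other Mef2d probe sets were not called at any hour. On 1437300_at (B chip) the 0 h arrays read 2732.1, 2941.6 and 3761.7 and the 24 h arrays 6084.2, 3616.0 and 5452.9. These overlapped, and the log2 difference was 0.65 (95% interval 0.15 to 1.15, adjusted p = 0.277). On 1421388_at, which stayed between 236.8 and 501.5 on all arrays, it was 0.26 at 24 h (-0.22 to 0.75, adjusted p = 0.621) and 0.32 at 48 h.

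Mef2a, expressed widely and needed in mature heart and muscle, had its highest means in the middle of the course. On the brightest probe set, 1427185_at, the 0 h arrays read 4461.6, 4204.2 and 2649.4, and the 4 h arrays 5637.1, 5105.7 and 3170.3. At 12 h they were 6094.5, 5875.8 and 3559.3, at 24 h 5579.2, 5686.8 and 3680.0, and at 48 h 4111.7, 4157.2 and 2844.7. Replicate 3 was the lowest at every hour, and the shape was alike in the 3 replicates: from 0 to 12 h the log2 change was 0.45, 0.48 and 0.42, and from 0 to 48 h it was -0.12, -0.02 and 0.10.

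Over all arrays no Mef2a probe set was called at any hour. The log2 difference of 1427185_at was 0.45 at 12 h (95% interval -0.15 to 1.05), 0.41 at 24 h (-0.19 to 1.00) and -0.01 at 48 h (-0.61 to 0.59). The batch fit called this set higher at 12 h (adjusted p = 0.0280) and 24 h (adjusted p = 0.00793) and lower from 24 to 48 h (-0.42, adjusted p = 0.0264). It also called 1452347_at at 12 h (0.77, adjusted p = 0.00794) and 24 h (0.69, adjusted p = 0.00182), and 1427186_a_at at 24 h (0.75, adjusted p = 0.0281). Those 3 sets derive from the same transcript record. In replicates 1 and 2 alone 1427185_at and 1452347_at were called at 12 and 24 h, and 1427186_a_at had 0.87 at 24 h (adjusted p = 0.0501). At 12 h the batch fit called 0.545% of A probe sets higher, and replicates 1 and 2 alone called 1.86%. From 24 to 48 h the batch fit called 1.2% of A probe sets lower. At 24 h it called 6% of A and 2.31% of B probe sets higher, and replicates 1 and 2 alone called 6.52% of A. At 48 h these fits called 5.1% and 5.95% of A probe sets higher, and no Mef2a set.

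The remaining Mef2a sets varied more between arrays. On 1421252_a_at the 15 intensities ran from 488.7 to 1742.4, and on 1425426_a_at from 115.7 to 432.7. On 1442623_at (B chip) the highest arrays were replicate 2 at 12 h (5073.5) and replicate 1 at 4 h (4592.7), while replicate 3 stayed between 918.1 and 1837.5. None of these 3 sets was called between hours in the batch fit or in replicates 1 and 2 alone. The mean peaked at 12 h for 3 of the 6 Mef2a sets, at 24 h for 2, and at 4 h for the B set.

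**Figure D2:**
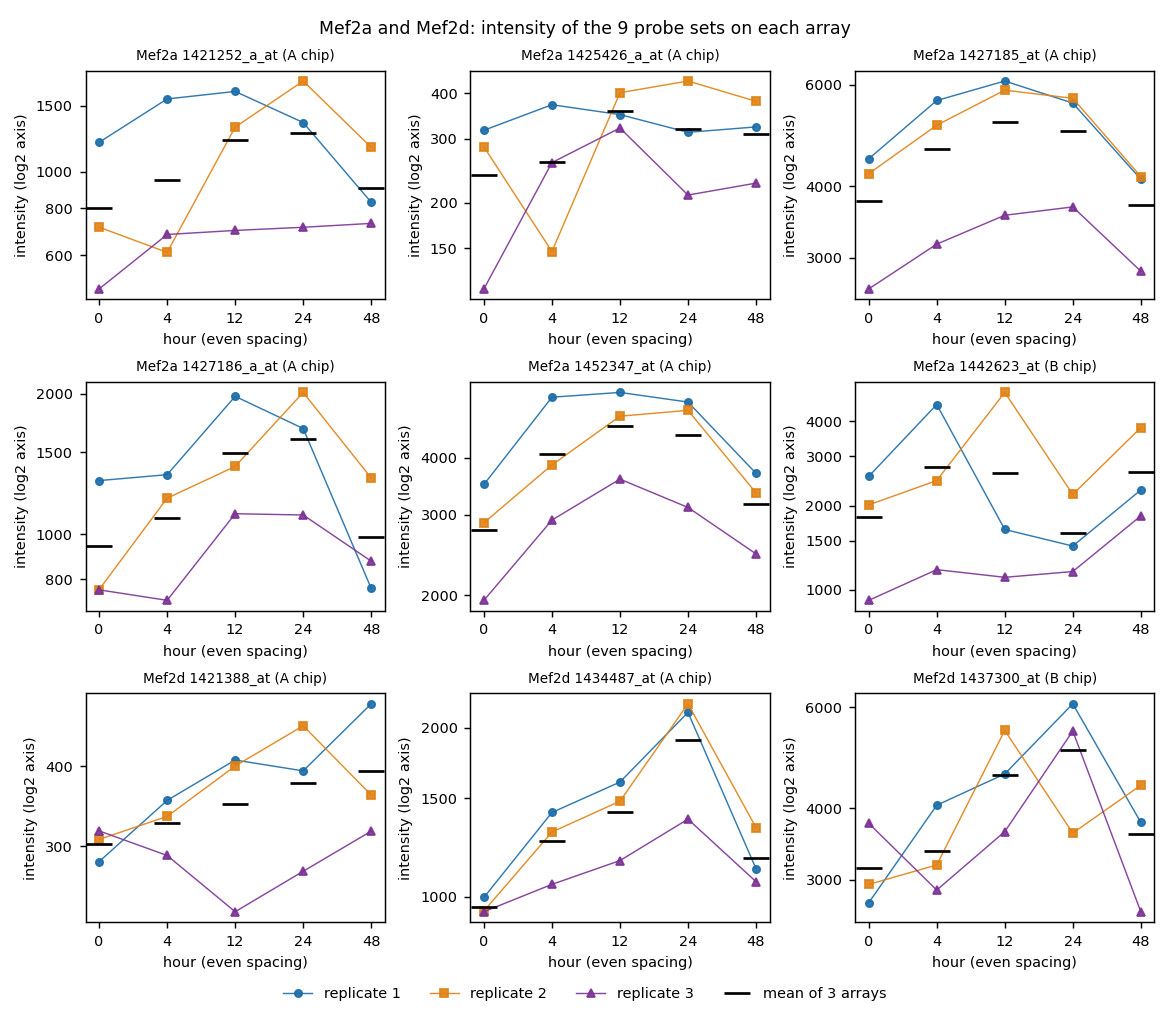
Intensity (log2 axis) of the 6 Mef2a and 3 Mef2d probe sets on each array against hour, evenly spaced, drawn as for Mef2c. Replicate 3 is lowest at every hour for Mef2a 1427185_at, and Mef2d 1434487_at is highest at 24 h in each replicate.

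In the average over hours, replicate 3 differed most for Mef2a. All 6 Mef2a probe sets were lower in replicate 3 than in replicates 1 and 2, by log2 differences from -1.06 to -0.52, and so were 2 of 3 Mef2d sets (-0.36 for 1421388_at and -0.33 for 1434487_at). With 0 of 5 for Mef2c, that made 8 of 14 members lower and 0 higher. Of all tested probe sets, 17.5% of A and 7.37% of B were lower in replicate 3, and 16.4% and 7.44% higher. The 14 members are not independent, since 3 of the Mef2a sets derive from the same transcript record.

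**Figure D3:**
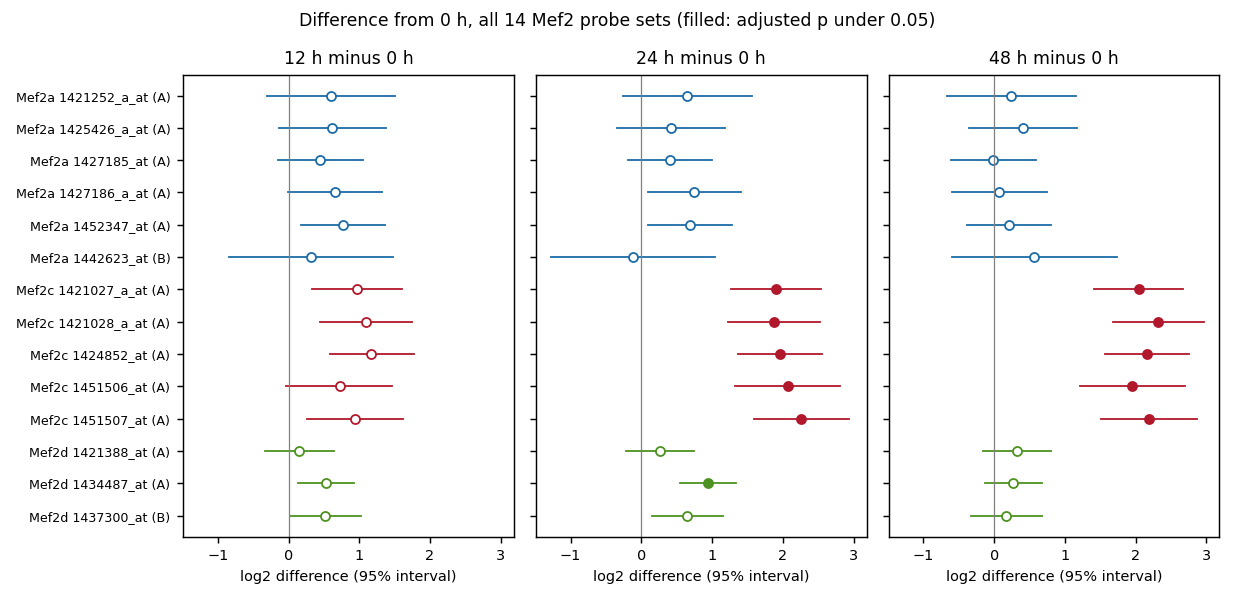
Log2 difference from 0 h at 12, 24 and 48 h for the 14 probe sets (A or B chip in parentheses), over all arrays, with 95% intervals as bars and filled points for an adjusted p under 0.05. The 5 Mef2c sets are called at 24 and 48 h, and among the others only Mef2d 1434487_at is, at 24 h.

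The genes were also compared over late (24 and 48 h) and early (0 and 4 h) arrays, 6 against 6, by exact two-sided permutation tests on the main probe sets. The late mean minus the early mean was 1.84 on the log2 scale for Mef2c (p = 0.00216, the smallest that 924 permutations can give, adjusted p = 0.00433 over 6 tests), and no late array overlapped an early one. It was 0.42 for Mef2d (exact p = 0.0671, adjusted p = 0.0805) and 0.05 for Mef2a (exact p = 0.827). The Mef2c shift exceeded that of Mef2a by 1.78 and that of Mef2d by 1.42 (exact permutation, adjusted p = 0.00433 for both). The Mef2d shift exceeded that of Mef2a by 0.37 (exact permutation, adjusted p = 0.039), a call that did not hold under quantile normalization (0.33, adjusted p = 0.0682) or without any 1 of 9 arrays (0.32 to 0.39). Those were the 0 and 4 h arrays of replicates 1 and 2, the 24 h array of each replicate, and the 48 h arrays of replicates 2 and 3. Averaging 24 and 48 h hides any change of Mef2d between them, which was -0.66 on 1434487_at and not called over all arrays. These permutations exchanged arrays between replicates and so took no account of the split of replicate 3. In replicates 1, 2 and 3 the shift was 2.09, 2.56 and 0.86 for Mef2c, 0.37, 0.61 and 0.28 for Mef2d, and -0.07, 0.07 and 0.16 for Mef2a. With late and early exchanged only within a replicate, an alternative chosen after the data were seen, Mef2c had p = 0.00926, the smallest that 216 exact permutations can give (adjusted p = 0.0139). Mef2d then had an adjusted exact p of 0.0778 and Mef2a of 0.676. The difference between the Mef2d and Mef2a shifts, 0.44, 0.54 and 0.12 by replicate, had an adjusted exact p of 0.0139.

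Across the 15 A arrays, the Mef2c probe sets correlated with each other at Pearson r of 0.95 to 0.98. Pairs of Mef2a and Mef2c sets had r of 0.05 to 0.44, Mef2c and Mef2d 0.43 to 0.57, and Mef2a and Mef2d 0.39 to 0.85. These are descriptions: the points share arrays, hours and the split of replicate 3. Over the same arrays and 7889 genes, the patterns most like Mef2c 1421027_a_at were those of Myom2, an M-band protein of the sarcomere (r = 0.989), Hspb3, a small heat shock protein (0.979), and Lmcd1, Sema3b and Casq2, the calcium store protein (each 0.971). With each replicate's mean removed, Myom2 (0.989), Bex1 (0.986), Actn2, the Z-disc actinin (0.981), Hspb3 and Myh7, the slow myosin heavy chain (each 0.980), came first. For Mef2a 1427185_at the first were Hspb1 and Atp11a (each 0.960), Arpp21 and Fam214b (each 0.955) and BC005537 (0.954). With replicate means removed they were Igf1, the insulin-like growth factor (0.941), Ralgps2 and Fam214b (each 0.934), Tollip (0.929) and Zeb1 (0.926). For Mef2d 1434487_at they were Rnf11 and Rdh10 (each 0.940), Fgf21, a secreted hormone (0.933), Sap30 (0.927) and Dlgap4 (0.913). With replicate means removed, Kcmf1 (0.921) took the place of Fgf21. Of the 7889 genes, r exceeded 0.9 for 78 with Mef2c, 60 with Mef2a and 9 with Mef2d. After removal of replicate means these counts were 147, 9 and 11.

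Of 21 genes known as MEF2 targets in muscle, 19 were tested, each by its brightest tested probe set. None was called at 12 h. This list and those below were chosen with earlier results of these data known, so their counts are descriptions. At 24 h 7 targets rose and 0 fell. The list median log2 difference was 0.54, against -0.05 over all tested A and -0.02 over all tested B probe sets. At 48 h 4 rose and 1 fell (median 0.40 against 0.01 on A and -0.00 on B). Of all tested probe sets, 1.61% of A and 0.592% of B rose at 24 h, and 1.42% and 0.666% at 48 h. The rises at 24 h were those of Myom1, an M-band protein (231.0 ± 83.88 to 986.3 ± 166.1, SD, n = 3, log2 difference 2.01), Hrc, a calcium-binding protein of the sarcoplasmic reticulum (1.36), and Pgam2, the muscle phosphoglycerate mutase (1.45). The other 4, named after their values were seen, were Mb, encoding myoglobin (2.00), Lmod3, an actin filament nucleator (B chip, 1.90), Ckm, the muscle creatine kinase (1.61), and Srpk3, a muscle kinase (1.19). At 48 h Mb, Myom1, Pgam2 and Hrc were still called, at 1.90, 1.63, 1.49 and 1.03. Ckm and Srpk3 stood at 0.51 and 0.37 at 48 h (adjusted p = 0.536 and 0.560).

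Jun, which encodes a subunit of the AP-1 factor and whose start window carries the element shown above, went the other way. Its mean was 5493 ± 155.1 (SD, n = 3) at 0 h, 4361 ± 152.4 at 24 h and 3412 ± 106.5 at 48 h, a log2 difference at 48 h of -0.68 (adjusted p = 0.00227). Pgam2 and Srpk3, with the element in their windows too, were among the genes that rose at 24 h. Myog and Des, also on the list and bright throughout, had 0.09 and 0.25 at 24 h with no call. In the batch fit 9 targets rose and 1 fell at 24 h, and 6 rose and 1 fell at 48 h. That fit called 6% of A and 2.31% of B probe sets higher at 24 h, and 5.1% and 2.62% at 48 h. In replicate 3, 6 of the 19 were lower and 2 higher than in the others, where 17.5% and 16.4% of A probe sets were. Replicates 1 and 2 alone called 6 targets higher at 12 h, 10 higher at 24 h, and 9 higher and 1 lower at 48 h. More of the whole chip was called there too. At 12, 24 and 48 h the shares called higher were 1.86%, 6.52% and 5.95% of A, and 0.296%, 2.78% and 2.77% of B. The counts over all arrays rested on few of them. At 24 h the 7 calls became 3 and 2 without the 0 h array of replicate 1 or 2, and 1 and 2 without the 24 h array of replicate 1 or 2. At 48 h the 5 calls became 1 when the array of replicate 1 or 2 at 0 or 48 h was left out, 3 without the 12 h array of replicate 1 or the 24 h array of replicate 1 or 2, and 0 when the hours compared were fitted alone.

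**Figure D4:**
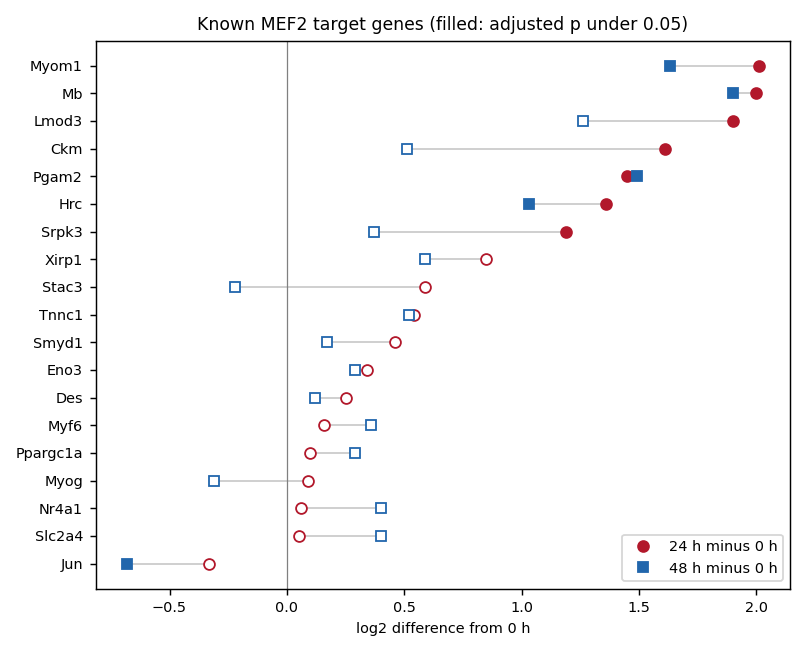
Log2 difference from 0 h at 24 h (circles) and 48 h (squares) for the 19 tested MEF2 target genes, ordered by the 24 h value, over all arrays, filled where the adjusted p is under 0.05. Myom1, Mb, Lmod3, Ckm, Pgam2, Hrc and Srpk3 are filled at 24 h, and Jun is the only filled point below 0.

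Among 15 tested partners and coactivators of MEF2 proteins, 1 rose and 1 fell at 24 h, and 1 fell at 48 h. In either direction, 2.67% of A and 0.851% of B probe sets were called at 24 h, and 2.15% and 1.13% at 48 h. Tead4, a TEA domain factor of muscle genes, rose from 320.5 ± 77.25 to 696.0 ± 234.4 at 24 h (log2 difference 1.02, adjusted p = 0.0353). Myf5, a determination factor of myoblasts, fell from 370.4 ± 129.3 to 129.2 ± 28.53 (-1.31, adjusted p = 0.0310). Srf, a MADS-box factor related to MEF2, fell at 48 h (-0.56, adjusted p = 0.0325). Vgll2, a cofactor of TEA domain factors, had 0.66 at 48 h (B chip, adjusted p = 0.109). The list medians were 0.00 at 24 h and -0.02 at 48 h. At 48 h the batch fit called 1 higher and 3 lower, and replicates 1 and 2 alone 2 higher and 4 lower. These fits called 9.79% and 12.4% of A probe sets at 48 h, and 5.25% and 6.32% of B, in either direction. Without the 0 h array of replicate 1 or 2, or the array of replicate 1 or 2 at the hour compared, 0 partners were called at 24 h and 0 at 48 h. Without the 12 h array of replicate 1 or 2 1 was called at 24 h, and without the 12 or 24 h array of replicate 1 0 were at 48 h. Fitting the compared hours alone called 0 at 24 and at 48 h. Without the 0 or 48 h array of replicate 3, 2 were called at 48 h.

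None of the 5 tested repressors was called at any hour over all arrays (limma; 1 had an unadjusted p under 0.05 at 24 h). Hdac9, whose gene is a MEF2 target as well as a class II deacetylase that binds MEF2, had a log2 difference of 1.06 at 24 h (B chip, adjusted p = 0.315). For Hdac4, Hdac5 and Hdac7 it was 0.20, -0.13 and -0.00. Replicates 1 and 2 alone called 1 of the 5 higher at 24 h, where 6.52% of A and 2.78% of B probe sets rose.

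Of 16 tested genes of kinase and phosphatase pathways that reach MEF2 proteins directly or indirectly, 1 was called over all arrays, at 48 h. At that hour 2.15% of A and 1.13% of B probe sets were called in either direction. Camk2d, a calcium/calmodulin kinase, rose from 261.9 ± 15.99 at 0 h to 648.3 ± 77.45 at 48 h (log2 difference 1.21, adjusted p = 0.00278), with 402.1 ± 49.41 at 24 h. Camk2a had 1.40 at 24 h (B chip, adjusted p = 0.249), Mapk7 -0.88 at 48 h (adjusted p = 0.201) and Camk1 -0.41 at 24 h (adjusted p = 0.203). The list medians were 0.11 and 0.08 at 24 and 48 h. In replicates 1 and 2 alone 4 of the 16 rose and 1 fell at 24 h, and 2 rose and 2 fell at 48 h. More of both chips was called in that fit too. At 24 h 6.52% of A and 2.78% of B probe sets were called higher. Called lower at that hour were 1151 of 13576 on A and 321 of 13507 on B. At 48 h 12.4% of A and 6.32% of B were called in either direction.

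Mef2b, the fourth MEF2 gene, was dim. Its A probe set ranged from 5.3 to 53.7 with a median of 18.3, among the dimmest 15.5% of the chip, and was not tested.

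MEF2 genes are also expressed outside skeletal muscle, so markers of other cell types were read on the same arrays. Of 7 endothelial markers, Pecam1, Cdh5, Tie1, Emcn and Cldn5 were too dim to be tested, and the 7 summed to 338 to 404 at 0 h, 387.7 to 630.5 at 12 h, 323.4 to 445.4 at 24 h and 392.9 to 620.8 at 48 h. Kdr and Tek were tested (medians over the A arrays 136.8 and 127.4) and were not called at 12, 24 or 48 h over all arrays. The 6 measured blood markers summed to 377.8 to 542.1 at 0 h and 449 to 674.4 at 48 h, with Ptprc, Cd68, Cd79a and Cd3e too dim to be tested. Csf1r and Adgre1 were tested (medians 171.6 and 125.5) and were not called at 12, 24 or 48 h either. The 6 measured neural markers summed to 305.5 to 374.9 at 0 h and 316.5 to 507.2 at 48 h. That sum holds the dim A probe sets of Rbfox3 (median 9.3) and of Map2, a neuronal microtubule protein. The tested B probe set of Rbfox3 was brighter, with hour means of 704.9 to 805.7, and was not called at 12, 24 or 48 h. Nor was Sox10, tested on A (median 167.1). The tested B probe set of Map2 read 378.7 to 663.5 in replicate 3 and 99.6 to 198.1 in the others, higher by 1.48 (batch fit, adjusted p = 4.96e-05). For scale, the 7 skeletal muscle markers summed to between 40366 and 67665. Among smooth muscle markers Myh11 and Cnn1 were too dim to be tested. Acta2 and Tagln, which immature skeletal muscle cells also express, were bright, and Tagln and Smtn rose at 24 h, by 0.87 and 1.13 (adjusted p = 0.0108 and 0.0479). Both calls were lost when the 24 h array of replicate 1 was left out, and 1 of them when any 1 of 9 other arrays was. Of 6 fibroblast markers 5 were too dim to be tested. The 6 summed to 583.9 to 718.9 in replicate 3 and 237.9 to 427.6 in replicates 1 and 2. Twist2, the tested one, read 324.8 to 371.2 in replicate 3 and 58.3 to 160.4 in the others (higher by 1.60). The other 5 summed to 237.6 to 347.7 and 174.7 to 316.2, which overlapped. The skeletal muscle markers moved with replicate 3 as well: 5 of the 7 were lower in it and none was higher. Of all tested A probe sets, 17.5% were lower and 16.4% higher. The lower markers included Ttn, the giant sarcomere protein titin (-1.05), Des, the intermediate filament desmin (-0.49), and Myod1, a myogenic factor (-0.46). The sum of the 7 markers at 48 h was 40366 in replicate 3 against 67665 and 61970 in replicates 1 and 2. These splits run along the same arrays as the smaller Mef2c rise and the lower Mef2a level in replicate 3, and their part in them was not tested.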

How the data were processed

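The authors deposited linear probe set intensities for each array, per the labels from total RNA by the standard Affymetrix protocol. No source used here gives the summarising algorithm, the detection calls or the software. The deposited intensities had a common trimmed mean on all arrays, so no scaling was added. Probe sets were named from GEO's platform annotation, with symbols checked against RefSeq (0 changed). Intensities were transformed to log2 after adding the chip's 20th percentile (29 on A, 54 on B), which understates changes of dim genes, and the upper 60% by mean were tested (13576 on A, 13507 on B).

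Each chip was fitted over its 15 arrays in limma 3.58.1 (R 4.3.3; lmFit, eBayes with trend), with hour as a factor and two-sided tests adjusted by Benjamini-Hochberg within chip and comparison. Intervals are 95% intervals of the fit. The fit was tested before use on simulated A arrays with independent noise. These held no split of replicate 3, so that test says nothing of it. With 3 arrays per hour, the number of arrays limits the precision. No pair of arrays held identical values.

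All member probe sets are named whatever their values, with the brightest on A as main set. Like genes are the 5 with the highest r. From each list the up to 4 genes with the smallest F test p and up to 2 called against the majority are named. Members, lists and fits were chosen with earlier results of these data known.

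Each result was recomputed after quantile normalization or median centring, with other pseudocounts or filters, with a replicate block, from the compared hours alone, without trend, with array weights, and without each array in turn. Permutations within replicates were added after the data were seen.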

Additional observations from a re-analysis of the deposited data

How the results depend on the processing

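Mef2c 1421027_a_at kept its calls at 24 and 48 h under every alternative run. The 24 h call of Mef2d 1434487_at was lost when the compared hours were fitted alone (0.94) and was absent from the other probe sets of the gene, 1421388_at (0.26) and 1437300_at (0.65); leaving out 1 array gave 0.82 to 1.15. The 24 h difference of Mef2a 1427185_at was called with the replicate block (0.41, adjusted p = 0.0118), with replicate 3 as a batch term (0.41) and in replicates 1 and 2 alone (0.38), and was -0.12 on 1442623_at. The shift of Mef2d beyond Mef2a was not called under quantile normalization (0.33) or with a pseudocount 4 times larger (0.34), and without 1 array it was 0.32 to 0.45. The late shift of Mef2d was 0.31 to 0.51 without 1 array, called only without the 48 h array of replicate 3 (0.51), and that of Mef2a was -0.07 to 0.17. The causes were not tested.

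Pairing by replicate number was read from correlations of deviations from the hour means. Between same-numbered A arrays they were 0.04 to 0.62, 0.12 to 0.46 and 0.48 to 0.73 in replicates 1, 2 and 3. With other numbers at other hours they reached 0.49, 0.49 and -0.27. On B the same-numbered values were 0.00 to 0.23, 0.04 to 0.20 and 0.23 to 0.43, against up to 0.32, 0.32 and -0.07. Replicate 3 was thus shared across hours, while numbers 1 and 2 did not clearly pair the arrays. With the replicate block, 9 of 14 probe sets were called at 24 h against 6 over all arrays, 2 at 12 h against 0, and 5 at 48 h as before. It called more of the whole A chip too: 5.67% higher at 24 h against 1.61%, and 4.71% at 48 h against 1.42%.

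Directions that turned were all of uncalled differences. For Mef2a 1427185_at the difference at 48 h was 0.02 with array weights, -0.24 to 0.17 without 1 array, and 0.24, 0.41, 0.07, 0.21 and 0.57 on 1421252_a_at, 1425426_a_at, 1427186_a_at, 1452347_at and 1442623_at. Its step from 12 to 24 h was 0.03 with median centring and -0.29 to 0.16 without 1 array, and that from 4 to 12 h was -0.09 to 0.41. For 1425426_a_at at 4 h it was -0.31 in replicates 1 and 2 alone, -0.05 with array weights and -0.27 to 0.44 without 1 array. Without 1 array, 1421252_a_at had -0.21 to 0.53 at 4 h and -0.05 to 0.57 at 48 h, 1427186_a_at -0.15 to 0.33 at 48 h, 1452347_at -0.02 to 0.39 at 48 h, and 1442623_at -0.30 to 0.77 at 12 h and -0.54 to 0.17 at 24 h. Mef2c 1421027_a_at had a step from 24 to 48 h of -0.01 with median centring and -0.10 to 0.46 without 1 array. Mef2c 1451506_at at 4 h had 0.02 with quantile normalization, 0.01 with median centring and -0.11 to 0.15 without 1 array, and Mef2d 1437300_at at 4 h had -0.04 to 0.23. With 3 arrays per hour, differences of this size were not resolved.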
